A study of Mus musculus with 7 samples.

Results

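Cycling endothelial cells of the young mesenteric lymph node (mLN) were taken from single-cell RNA sequencing of CD45-CD24- stromal cells sorted from the mLN of BALB/c mice kept specific-pathogen-free. A cell was kept with 1000 to 4600 detected genes and at most 4.5% mitochondrial unique molecular identifiers (UMIs, each standing for 1 captured transcript). It was called endothelial with at least 2 UMIs of Pecam1, the endothelial junction molecule CD31, and cycling with at least 3 UMIs summed over Cdk1, Top2a, Mki67, Birc5, Ube2c and Nusap1. This rule found 129 cells at D0, D10 and D24, of 1300 Pecam1 cells and 7399 kept cells at those ages and 13197 kept cells in the whole series. There were 52 cells at D0, 62 at D10 and 15 at D24. Each of these 3 ages was 1 library, in which animals were not told apart, so age and library cannot be told apart. The sort left out leukocytes by CD45 and used no endothelial marker, so that the cells were not limited to 1 stromal type. The paper also describes early postnatal cells that it takes for fibroblasts of adjacent tissue. UMIs of exocrine pancreas genes were found in all 52 cycling cells of D0 and all 15 of D24. Whether each cell came from the node itself was not tested. Cell names gave the age and a running number, and cell barcodes shared between libraries were therefore not counted.

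Endothelial cells line blood vessels and lymphatics. In a growing vessel bed they divide while neighbouring cells keep a tube open, and sprouting capillaries, veins and arteries are known to differ in how often their cells enter the cycle. The lymph node holds all of these: arteries and capillaries, high endothelial venules through which lymphocytes enter, and lymphatic sinuses through which lymph and antigen arrive. A dividing cell copies its DNA in S phase with the help of the MCM helicase and the nucleotide-making enzymes, and then builds the spindle and kinetochores in G2 and mitosis.

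The label held against markers that the rule did not use. Of 16 further endothelial genes, the median cycling cell had UMIs of 13 at each of the 3 ages, against 2 to 3 in kept cells without Pecam1. Egfl7, a secreted endothelial protein, was found in 128 of the 129 cells, Cdh5 (VE-cadherin) in 125 and Eng (endoglin) in 124. The lowest cell had 3 of the 16 markers and came from D10. Genes of the fibroblastic list made up 0.270%, 0.180% and 0.0604% of the UMIs of the cycling cells at D0, D10 and D24, against 3.83%, 3.70% and 2.91% in kept cells without Pecam1. At D0, 32 of the 52 cycling cells still held 20 or more fibroblastic UMIs, at D10 7 of 62 and at D24 0 of 15. 1 cycling cell of D0 carried 2409 UMIs of globin and other erythroid genes, and 6 cycling cells of D10 held 20 or more UMIs of perivascular genes. Of the UMI-matched partners described below, 2 at D0 held 20 or more erythroid UMIs, with a highest value of 5638. At D0, D10 and D24, 3, 8 and 1 partners held 20 or more perivascular UMIs, against 1, 6 and 0 cycling cells. Results were therefore also computed without such cells. The D10 library also stood apart in sex-linked genes: Y-linked genes had UMIs in 38 of its 62 cycling cells and 33 of their 62 partners, against 1 and 0 cells at D0 and none at D24. Xist had UMIs in 9 of the D10 cycling cells and 17 of their partners, against all cells of both groups at D0 and D24. Sex therefore cannot be told apart from age at D10, and its part in the D10 comparison was not tested. Named genes whose call was lost without D10 are given after the gene lists.

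The cells were chosen by their measured UMIs of Pecam1 and the 6 cycling genes, which are therefore described without a test. The cycling sum had a median of 12 UMIs at D0, 10 at D10 and 17 at D24, with a highest value of 125 in a D10 cell. No single gene marked every cell. Birc5 (survivin) was seen in 38 of 52, 51 of 62 and 14 of 15 cells, while Mki67, the classical proliferation antigen, was seen in 23, 35 and 9. Of the cells just inside the threshold, with a sum of 3, there were 10, 8 and 2, and their median G2/M-list count was 21.5, 21.5 and 12.5 UMIs. Just outside it, with a sum of 2, there were 22, 12 and 11 cells, with medians of 9.5, 12.5 and 14 UMIs. The rule did not separate the cells at a gap, since 246 Pecam1 cells had a sum of 1 or 2 and belonged to neither group.

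For comparison, each cycling cell was paired with the Pecam1 cell of the same age that had a cycling sum of 0 and the nearest total of UMIs. All 129 found a partner within 20%. The median UMI count was 11189, 10438.5 and 9338 in the cycling cells of D0, D10 and D24, and 11056, 10303 and 9375 in their partners, while all 925 cells with a sum of 0 had medians of 6126 to 6935 by age. Counts were then summed per age and state, which gave 6 sums of 144062 to 654032 UMIs.

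Transcripts of the division programme followed the rule genes, as a description of what the rule selected. The S-phase list had a median of 38, 26.5 and 35 UMIs per cycling cell at D0, D10 and D24, against 9.5, 6 and 5 in the partners. The G2/M list had medians of 52.5, 76.5 and 96 UMIs, against 12, 9 and 7. The G2/M count was above the S count in 27 of 52 cells at D0, in 48 of 62 at D10 and in 11 of 15 at D24. In the partners, at their lower counts, it was so in 32 of 52, 42 of 62 and 11 of 15, so this measure did not set the groups apart. Single cycling cells reached 228 S-phase UMIs and 402 G2/M UMIs.

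**Figure D1:**
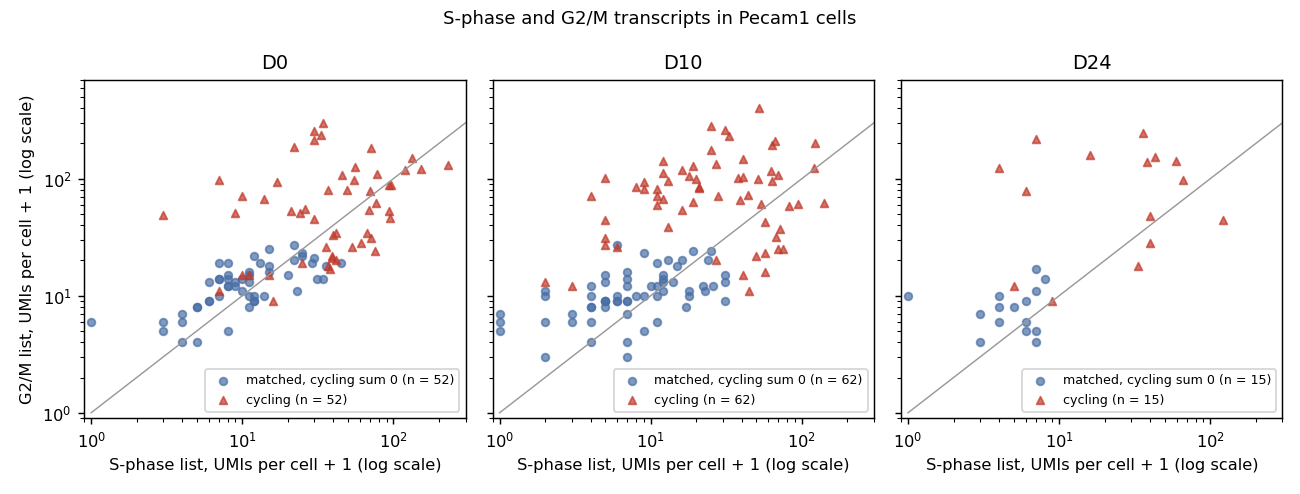
Each point is 1 cell at D0, D10 or D24, with its UMIs of the S-phase list on the x axis and of the G2/M list on the y axis, both as UMIs + 1 on a log scale; triangles are cycling cells, circles their UMI-matched partners, and the grey line marks equal counts. Cycling cells spread along both axes and mostly lie above their partners, while partners reached 44 S-phase and 26 G2/M UMIs.

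Among 6768 genes tested, 7.23% were called, 4.58% higher and 2.64% lower in cycling cells (edgeR quasi-likelihood test over the 6 sums with age in the model, Benjamini-Hochberg adjusted p under 0.05), 310 and 179 genes. Since the rule selected for division, the calls in the next lists are given as a description. In the S-phase list 28 of 31 tested genes were higher and none lower, with a median log2 fold change of 1.88. In the G2/M list 46 of 48 were higher and none lower, with a median of 4.63. Over all tested genes the median was -0.05. The 2 G2/M genes that were not called were Ckap5, at 0.81, and Ctcf, a chromatin insulator protein used by all cells, at 0.12.

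Among S-phase genes, 2810417H13Rik, which encodes a PCNA-binding factor, stood at 627, 463 and 423 counts per 1000000 UMIs (CPM) in the cycling cells of D0, D10 and D24 and at 12.4, 6.29 and 6.94 in their partners. Rrm2, a subunit of ribonucleotide reductase, stood at 242, 156 and 146 against 3.55, 6.29 and 0. Pcna, the sliding clamp of replication, was also well expressed in the partners, with 199, 136 and 153 against 85.3, 55.0 and 48.6. The levels of cycling cells and partners did not overlap for these 3 genes. The share of all tested genes without overlap was not counted, so this and the same statements on genes below only describe their values. Among G2/M genes, the chromatin protein Hmgb2 reached 1419, 1870 and 1707 against 165, 167 and 90.2. Cdc20, which activates the anaphase-promoting complex, stood at 187, 358 and 534 against 19.6, 6.29 and 0. Plk1, the polo-like mitotic kinase, had 102 UMIs in the 129 cycling cells and none in the 129 partners, so that it was at least 33.1-fold higher when the partners are given 3 UMIs. Cdkn3, a phosphatase that acts on Cdk1 and lies outside the lists, had 99 UMIs against 0, at least 32.1-fold higher by the same measure.

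Outside the lists, the 10 higher genes of largest fold were Cdkn3, Kif20a, Hist1h2ap, Mxd3, Pbk, Cep55, Prc1, Ncapg, Esco2 and Neil3. The mitotic kinesin Kif20a had 106 UMIs against 1, 103 times the partners' level (18.1 to 4110 by counting error), and the spindle-midzone protein Prc1 had 222 against 3, a ratio of 72.0 (24.3 to 352). Cep55, which works in the final cut between daughter cells, was found in 57 of the 129 cycling cells and in 1 partner.

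Because these G2/M genes moved together, the 150 bases before the transcription start were read for 3 of them (RefSeq, GRCm38.p6), to show the 2 short sequences that cell-cycle promoters are known to carry. Capitals mark every CCAAT (the CCAAT box) and TTTGAA (part of the cell-cycle homology region), on either strand, so that ATTGG and TTCAAA are their reverse complements. The motifs do not overlap each other.
Ccnb2, cyclin B2, chr9:70421555-70421704, minus strand: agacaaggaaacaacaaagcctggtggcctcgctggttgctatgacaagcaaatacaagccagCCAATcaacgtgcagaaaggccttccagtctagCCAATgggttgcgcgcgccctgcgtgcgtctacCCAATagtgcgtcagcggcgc
Cdc20, chr4:118437344-118437493, minus strand: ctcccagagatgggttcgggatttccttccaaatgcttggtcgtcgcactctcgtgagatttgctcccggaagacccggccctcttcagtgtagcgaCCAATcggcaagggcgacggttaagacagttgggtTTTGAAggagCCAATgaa
Ube2c, a ubiquitin carrier of mitosis and 1 of the 6 rule genes, chr2:164769779-164769928, plus strand: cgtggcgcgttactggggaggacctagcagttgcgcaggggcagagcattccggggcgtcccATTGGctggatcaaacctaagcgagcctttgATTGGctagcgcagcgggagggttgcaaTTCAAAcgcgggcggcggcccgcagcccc
The window of Ccnb2 held 3 CCAAT matches and no TTTGAA, and the windows of Cdc20 and Ube2c each held 2 CCAAT and 1 TTTGAA. Of the 46 called G2/M genes, 37 had a sequence in the table, and 28 of these (75.7%) held CCAAT, 10 (27.0%) TTTGAA and 9 (24.3%) both. Over all 27025 genes in the table the shares were 25.3%, 9.24% and 2.32%. The called S-phase genes had a sequence for only 20 of 28, too few for a share to be read, and 15 of these held CCAAT and 2 TTTGAA, so that CCAAT is not given as particular to the G2/M genes. These are matches of letters and no test was made of them.

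The vessel genes were measures that the rule did not use. Apln, the ligand apelin of sprouting endothelium, stood at 127, 65.7 and 69.4 CPM in the cycling cells of D0, D10 and D24 and at 26.7, 9.44 and 0 in their partners. The lowest cycling value was above the highest partner value. The log2 fold change was 2.52 ± 0.35 (SE of the fit), with an adjusted p of 9.96e-05 (edgeR). Aplnr, its receptor, stood at 251, 310 and 173 against 135, 67.6 and 41.6, and again the groups did not overlap (1.52 ± 0.24, adjusted p = 0.000518, edgeR). The call of Aplnr was lost against all unmatched cells (0.58, adjusted p = 0.059) and with cells thinned to 2000 UMIs (0.58, adjusted p = 0.269), and that of Apln when thinned (1.36, adjusted p = 0.171) and from a cycling sum of 2 (1.14, adjusted p = 0.0751). UMIs of Apln were present in 37 cycling cells and 11 partners, and UMIs of Aplnr in 72 and 33. In kept cells without Pecam1, 1.30% to 2.52% of cells had a UMI of Apln and 0.871% to 2.32% of Aplnr, at median depths of 7117 to 7451 UMIs. After thinning to 2000 UMIs, Aplnr was seen in 14 of 52, 27 of 62 and 5 of 15 cycling cells and in 8, 7 and 1 of the partners. Apln lies on chromosome X from 48025146 to 48034853 and Aplnr on chromosome 2 from 85136225 to 85139923 (GENCODE annotation of GRCm38, both protein-coding).

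UMIs of both genes lay in blood-marked cells. All 127 Apln UMIs of cycling cells were in the 86 blood-marked cells and 0 in the 34 lymphatic ones, a count that allows up to 3 UMIs there. Aplnr had 372 UMIs in the 86 blood-marked cycling cells and 1 in the lymphatic ones. Among blood-marked cells alone, matched anew, 4.39% of 4943 tested genes were called higher, and the fold changes were 2.52 and 1.51 on the log2 scale, with adjusted p of 0.000133 and 0.00109 (edgeR).

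Of 13 tested genes of the tip and sprouting list, 3 were higher and none lower, with a median of 0.22, where 4.58% of all genes were called higher. Among blood-marked cells the same 3 were higher, and Unc5b, a netrin receptor, was lower at -1.02 (adjusted p = 0.0464, edgeR). Beside Apln these were Adm, adrenomedullin, a peptide that acts on endothelium, and Trp53i11, a gene induced by p53. Adm stood at 73.9, 74.9 and 97.1 against 48.0, 28.3 and 13.9 (1.12 ± 0.31, adjusted p = 0.0328, edgeR) and Trp53i11 at 218, 124 and 118 against 103, 70.8 and 62.5 (0.89 ± 0.21, adjusted p = 0.0153). Kept cells without Pecam1 held 99.2, 184 and 201 CPM of Adm at D0, D10 and D24, more than the cycling cells. They held 4.22, 6.31 and 5.92 CPM of Trp53i11. The other 10 tested genes of that list were not called. Without cells of 20 or more erythroid, perivascular or leukocyte UMIs, Adm fell short of the threshold at 0.69 (adjusted p = 0.20), as it did against all unmatched cells (0.37, adjusted p = 0.362) and with cells thinned to 2000 UMIs (0.40, adjusted p = 0.718). Without D10, Apln alone of the 3 was called, at 2.42, and Aplnr stood at 1.08 (adjusted p = 0.0548).

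The capillary list gave 1 higher call among 8 tested genes, where 4.58% of all genes were called higher. Rgcc, a regulator of the cell cycle and a capillary marker, stood at 488, 460 and 111 against 297, 275 and 90.2 (0.62 ± 0.17, adjusted p = 0.0323, edgeR). This value turned to -0.55 against all unmatched cells with a sum of 0 and to -0.46 with cells thinned to 2000 UMIs, and the call was kept in 3 of 17 alternatives. Gpihbp1, which carries lipoprotein lipase onto capillaries, stood at 845, 417 and 493 against 473, 382 and 201, at 0.59 ± 0.18 (adjusted p = 0.0603). Fabp4, a fatty-acid carrier, changed sides between ages, with 1947, 1057 and 3747 in cycling cells and 2439, 3439 and 1159 in partners, and was not called.

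**Figure D2:**
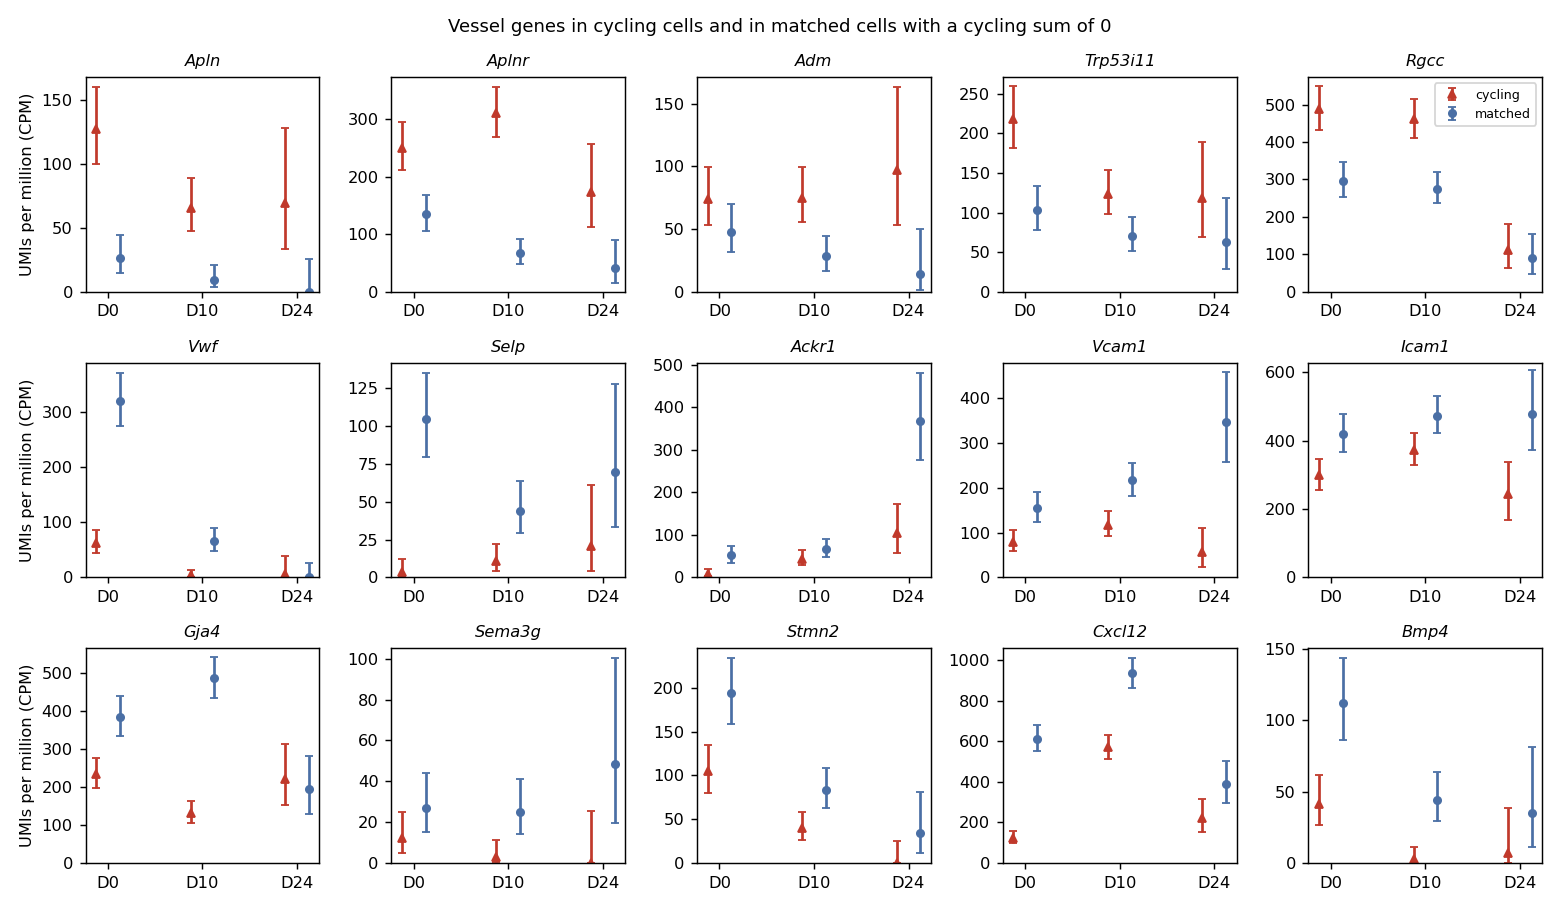
Level of 15 genes in CPM, from sums over the cycling cells (triangles) and their UMI-matched partners (circles) at D0, D10 and D24; bars are exact 95% Poisson intervals and cover counting error only. Apln and Aplnr are higher in cycling cells at all 3 ages, and Selp, Ackr1, Vcam1, Icam1 and Cxcl12 are lower at all 3.

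Venular genes were lower in part. Of 8 tested venular genes 5 were lower and none higher, with a median of -0.75, where 2.64% of all genes were called lower. Selp, P-selectin, on which leukocytes roll, stood at 3.44, 10.7 and 20.8 CPM in cycling cells and at 105, 44.0 and 69.4 in partners (-3.02 ± 0.45, adjusted p = 0.000219, edgeR). The groups did not overlap, and its 12 UMIs in cycling cells came from 8 cells, its 97 UMIs in partners from 20. From a cycling sum of 2, Selp stood at -0.62 (adjusted p = 0.348) and Ackr1 at -0.35 (adjusted p = 0.671), and neither was called. Ackr1, the venular chemokine carrier, stood at 8.59, 44.3 and 104 against 51.6, 66.1 and 368 (-1.50 ± 0.32, adjusted p = 0.00628). It was lower within each age, and was not called without D24 (-1.18, adjusted p = 0.0566). Vcam1, the ligand of VLA-4, stood at 79.0, 118 and 55.5 against 155, 217 and 347 (-1.29 ± 0.25, adjusted p = 0.00284). Icam1 fell by 0.61 and Lrg1 by 0.89 on the log2 scale, with adjusted p of 0.0328 and 0.0226. Over the alternatives Icam1 lay between -0.93 and -0.07, and Lrg1 between -1.18 and 0.027, the latter against all unmatched cells. Without D10 or without D24 the list gave 3 calls, and within blood-marked cells 2 of 8, Selp at -3.35 and Ackr1 at -1.42, where 2.93% of genes were called lower. Vcam1 (-0.91, adjusted p = 0.057) and Icam1 (-0.36, adjusted p = 0.259, edgeR) were not called there. Kept cells without Pecam1 held 368, 759 and 633 CPM of Vcam1 at D0, D10 and D24, and 262, 185 and 299 of Icam1. They held at most 48.3 CPM of Lrg1, 17.9 of Ackr1 and 2.45 of Selp. The part of RNA from other cells was not tested.

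The high endothelial list gave 1 lower call among 9, where 2.64% of all genes were called lower. Glycam1, a mucin ligand of L-selectin, stood at 301, 1618 and 5420 CPM in cycling cells against 1083, 1900 and 26419 in partners (-1.54 ± 0.28, adjusted p = 0.00154, edgeR). This value was -0.49 among blood-marked cells (adjusted p = 0.386) and 0.20 against all unmatched cells (adjusted p = 0.701). With cells thinned to 2000 UMIs it passed the threshold in the opposite direction, at 0.68 (adjusted p = 0.0165). Madcam1, the mucosal addressin, was not called and stood at 467, 511 and 958 against 309, 744 and 1666.

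Von Willebrand factor gave the largest fall of the blood vessel list. Vwf, which tethers platelets and marks larger vessels, stood at 61.9, 4.59 and 6.94 CPM in cycling cells and at 320, 66.1 and 0 in partners (-2.63 ± 0.35, adjusted p = 7.82e-05, edgeR). The difference rested on D0 and D10, since at D24 the 2 sums held 1 and 0 UMIs. UMIs of Vwf were seen in 14 cycling cells and 27 partners. In the blood vessel list 1 of 10 tested genes was higher (Aplnr) and 4 were lower, against 4.58% and 2.64% of all genes: Vwf, Ly6c1 at -0.85, the endothelial transcription factor Sox17 at -0.80 and the VEGF receptor Flt1 at -0.71. Ly6c1, Sox17 and Flt1 also served to assign cells to the blood class and are not read within it. Plvap, of fenestrated endothelium, stood at 1629, 1775 and 1860 against 1598, 1953 and 2207 and was not called.

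Arterial genes were lower in part. Over all cells 3 of 10 tested genes were lower and none higher, with a median of -1.08, against 2.64% of all genes called lower. They were Gja4 (connexin 37), Sema3g and Stmn2. Gja4 stood at 234, 131 and 222 CPM in cycling cells and at 384, 486 and 194 in partners (-1.06 ± 0.25, adjusted p = 0.0129, edgeR), lower at D0 and D10 but not at D24. Sema3g, a semaphorin of arterial endothelium, had 9 UMIs in the cycling cells and 38 in the partners, a ratio of 0.230 (0.098 to 0.485), and Stmn2 fell by 1.10. Among blood-marked cells 7 of the 10 were lower, against 2.93% of the 4943 genes tested there, with a median of -1.62. In that comparison Gja4 stood at -1.97 (adjusted p = 1.73e-05), and it had 141 UMIs in the 86 cycling cells and 453 in 80 partners of the main matching. Over all cells the arterial count was 0 without D10, 6 without D24 and 0 with DESeq2.

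**Figure D3:**
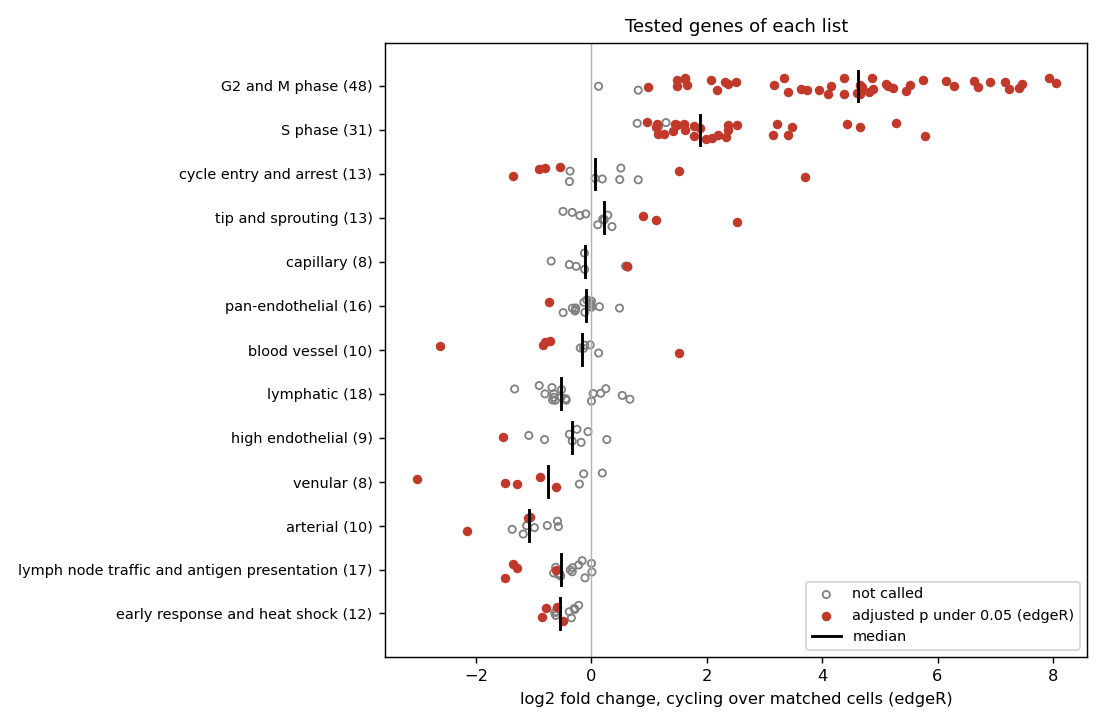
Log2 fold change of cycling cells over their UMI-matched partners (edgeR) for every tested gene of 13 lists, 1 point per gene, with the number of tested genes in brackets; filled points have an adjusted p under 0.05 and the black bar is the list's median. The S-phase and G2/M lists lie to the right, the venular and arterial lists have medians of -0.75 and -1.08, and the pan-endothelial list is centred at -0.10.

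Of 16 tested pan-endothelial genes 1 was lower (6.25%, against 7.23% of all tested genes called in either direction and 2.64% lower), Mmrn2 at -0.74 ± 0.17 (adjusted p = 0.00962, edgeR), and none higher, with a median of -0.10. Cdh5 stood at 484, 442 and 472 CPM against 446, 514 and 500. No gene of 18 tested in the lymphatic list was called. Prox1, the transcription factor that sets lymphatic identity, stood at 77.3, 50.5 and 160 against 128, 124 and 76.4 (-0.66 ± 0.30, adjusted p = 0.233).

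Chemokine and growth-factor genes were called in a few cases. Cxcl12, a chemokine made by stroma and arteries, stood at 124, 570 and 222 CPM against 613, 934 and 389 (-1.35 ± 0.24, adjusted p = 0.00123, edgeR). Kept cells without Pecam1 held 1175, 4538 and 3140, and without cells of 20 or more fibroblastic UMIs Cxcl12 stood at -1.51 (adjusted p = 0.0064). Without cells of 20 or more erythroid, perivascular or leukocyte UMIs it stood at -1.03 and was not called (adjusted p = 0.068). In the lymph node traffic and antigen presentation list 4 of 17 were lower and none higher, where 2.64% of all genes were called lower and 4.58% higher: Cxcl12 and the venular Ackr1, Vcam1 and Icam1. Of 9 tested growth-signal ligands, Apln was higher and Bmp4, a bone morphogenetic protein, was lower at 41.2, 3.06 and 6.94 against 112, 44.0 and 34.7 (-2.001 ± 0.37, adjusted p = 0.00197). Of 17 receptors only Flt1 was called (lower), near the share of 7.23% called in either direction over all genes, and Fgfr1 stood at -0.99 (adjusted p = 0.0548).

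Outside the lists, the 10 lower genes of largest fold included 3 that encode secreted cytokines, Il6, Ccl2 and Ccl7, and Plat, the tissue plasminogen activator. Ccl2 stood at 174, 110 and 250 CPM in cycling cells and 562, 572 and 729 in partners, without overlap (-1.97 ± 0.18, adjusted p = 1.06e-06, edgeR). UMIs of Ccl2 were present in 67 cycling cells and 63 partners, and UMIs of Ccl7 in 46 and 40. The falls thus lay in the summed UMIs and not in the number of cells with a UMI. Maff, a small transcription factor of stress responses, stood at 112, 76.4 and 97.1 against 459, 299 and 278 (-1.98 ± 0.18, adjusted p = 1.33e-06). Il6 had 12 UMIs against 104, of which 88 came from the D10 partners. Further genes among them were Igfbp5 at -2.21, Tcp11l2 at -1.87, Mt1 (metallothionein) at -1.70, Plat at -1.70 and Ccl7 at -1.68. Kept cells without Pecam1 carried 894, 773 and 2584 CPM of Ccl2. Without cells of 20 or more fibroblastic UMIs, Maff (-2.001), Plat (-1.95) and Igfbp5 (-3.24) were still called, while Ccl2 stood at -1.12 (adjusted p = 0.115). Among blood-marked cells Maff stood at -1.01 (adjusted p = 0.0131), and Ccl2 (-1.28), Plat (-0.97), Igfbp5 (-1.44) and Ccl7, which turned to 0.33, were not called. Without fibroblastic UMIs of 20 or more Ccl7 stood at -0.80 (adjusted p = 0.161).

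Stress genes were lower in part. Of 12 early response and heat shock genes 4 were lower and none higher: Hspa1b at -0.86, Dnajb1 at -0.79, Egr1 at -0.60 and Jun at -0.49, where 2.64% of all genes were called lower. The call was kept in 7 of 17 alternatives each for Hspa1b, Dnajb1 and Jun and in 4 of 17 for Egr1. The whole list summed to 10619, 10538 and 14510 CPM in cycling cells and 13931, 11877 and 19492 in partners, and it gave 1 lower call of 12 among blood-marked cells, where 2.93% were called lower. Of 16 genes of glycolysis and ribosome building, near the shares over all genes (4.58% higher and 2.64% lower), 1 was higher, the nucleolar Nop56 at 0.89 (adjusted p = 0.0151, edgeR), and 1 lower, the glycolytic Aldoa at -0.90 (adjusted p = 0.00162).

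Regulators of cycle entry went both ways, with 2 of 13 tested genes higher and 4 lower, against 4.58% and 2.64% of all genes. The inhibitors of the INK4 family Cdkn2c and Cdkn2d were higher, at 3.70 and 1.52. Cdkn2c stood at 77.3, 67.3 and 180 CPM against 0, 11.0 and 6.94. The CIP/KIP inhibitors Cdkn1c (p57) and Cdkn1a (p21) were lower, at -1.35 and -0.80, together with cyclin D2 (Ccnd2) at -0.92 and the antiproliferative Btg1 at -0.55. The call of Cdkn1a (adjusted p = 0.045, edgeR) was lost in all 17 alternatives, in which its fold change lay between -1.16 and -0.07. Cdkn1c stood at 196, 35.2 and 90.2 against 556, 127 and 27.8, that is lower at D0 and D10 only. Kept cells without Pecam1 held 1909, 241 and 144 CPM of Cdkn1c at D0, D10 and D24, and 317, 263 and 155 of Ccnd2. They held 36.0, 12.8 and 51.0 of Cdkn1a and 286, 194 and 200 of Btg1. The part of RNA from other cells in these calls was not tested.

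Without D10, 22 of the genes called above were not called. Sox17 (-0.41), Ly6c1 (-0.48), Lrg1 (-0.40), Gja4 (-0.50) and Mt1 (-0.86) then stood nearer to 0, with adjusted p of 0.63, 0.408, 0.359, 0.406 and 0.247 (edgeR). Aplnr (1.08), Aldoa (-0.77), Dnajb1 (-0.64), Icam1 (-0.77), Flt1 (-0.86), Plat (-1.06), Ccnd2 (-1.08) and Trp53i11 (0.95) had adjusted p of 0.0548 to 0.0991. The other 9 were Adm (0.95), Btg1 (-0.56), Cdkn1a (-0.91), Cdkn1c (-1.06), Egr1 (-0.57), Mmrn2 (-0.65), Nop56 (0.84), Rgcc (0.54) and Stmn2 (-1.11), with adjusted p of 0.14 to 0.341 (Adm 0.294). Il6 and Sema3g did not pass the filter on low counts without D10. Over the alternatives that gave a value, the call was kept in 17 of 17 for Maff, 16 of 16 for Cdkn2c, 15 of 17 for Apln, 14 of 15 for Vwf, 14 of 17 for Ccl2 and Cxcl12, 13 of 15 for Selp and Bmp4, 13 of 17 for Aplnr, Vcam1 and Cdkn2d and 12 of 17 for Ackr1 and Gja4. It was kept less often for Trp53i11 (9 of 17), Adm and Glycam1 (8 of 17 each), Lrg1 (5 of 17) and Icam1 (4 of 17).

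Other cell types' lists were read beside these calls. In the fibroblastic list 3 of 6 tested genes were lower (Dcn at -1.01, Lum at -0.80 and Col1a2 at -0.69) and in the perivascular list 2 of 6 (Tagln at -1.74 and Acta2 at -1.16), with none higher in either, where 2.64% of all genes were called lower. Acta2 turned to 0.86 without cells of 20 or more erythroid, perivascular or leukocyte UMIs, and Dcn to 0.054 from a cycling sum of 2. The fibroblastic list summed to 2696, 1798 and 604 CPM in cycling cells and to 5658, 1681 and 1777 in partners, and the perivascular list to 296, 391 and 111 against 459, 896 and 354. Per cell, the fibroblastic list had medians of 19.0, 8.10 and 5.47 UMIs per 10000 in cycling cells against 16.2, 8.19 and 8.49. A list of exocrine pancreas genes gave 0 calls among 5 tested genes and summed to 684, 7.65 and 451 against 580, 11.0 and 465. No leukocyte, erythroid, mesothelial or Schwann gene passed the filter on low counts. Their part in the lower calls was not tested beyond leaving out the cells named above. Without cells of 20 or more erythroid, perivascular or leukocyte UMIs, 388 genes were called and Vwf (-2.48), Selp (-2.99), Apln (2.12) and Aplnr (1.48) were among them.

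Each cell was then given a vessel class by its own UMIs. A lymphatic cell had at least 2 UMIs of Prox1, Lyve1, Mmrn1 and Reln and more of these than of Flt1, Emcn, Ly6c1 and Sox17, and a blood-marked cell the reverse. Of the cycling cells 17 of 52 (32.7%, exact 95% interval 20.3 to 47.1), 12 of 62 (19.4%, 10.4 to 31.4) and 5 of 15 (33.3%, 11.8 to 61.6) were lymphatic. Of the partners 36.5%, 33.9% and 33.3% were. The differences were -3.85, -14.5 and 0 percentage points, and their intervals (-21.4 to 14.1, -29.2 to 1.07 and -30.9 to 30.9) hold 0 at every age. At D10 the interval excluded 0 from a cycling sum of 2 (-14.9 points, -28.4 to -0.64) and without cells of 20 or more erythroid, perivascular or leukocyte UMIs (-17.9 points, -33.6 to -0.81). These intervals cover counting error only, and 3 paired ages allow no exact permutation p under 0.25.

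Blood-marked cells were split further, into venous-marked cells by Ackr1, Selp, Chst4, Ch25h, Madcam1 and Fut7 and arterial-marked cells by Gja4, Gja5, Hey1, Bmx, Sema3g and Stmn2. Arterial-marked cells made up 9 of 31, 8 of 46 and 1 of 9 blood-marked cycling cells at D0, D10 and D24, which is 29.0%, 17.4% and 11.1%. In the partners they were 12 of 31, 23 of 39 and 5 of 10, or 38.7%, 59.0% and 50%. The share was lower in cycling cells at all 3 ages, by 9.68, 41.6 and 38.9 points, with an interval that excludes 0 at D10 (-57.8 to -21.1) and not at D0 or D24. With cells thinned to 2000 UMIs the D10 difference was -22.5 points (-36.1 to -3.85). At D24 it excluded 0 from a cycling sum of 2 (-58.7 to -6.73), without the upper limit on genes (-62.9 to -0.36) and without cells of 20 or more erythroid, perivascular or leukocyte UMIs (-71.6 to -1.04). Venous-marked cells were 48.4%, 52.2% and 33.3% of blood-marked cycling cells and 41.9%, 41.0% and 40.0% of partners. The intervals of these differences hold 0 at each age in the matched comparison. The interval excluded 0 at D10 against all unmatched cells (18.8 points, 2.99 to 34.1), and the direction turned in alternatives at each age. These sets share genes with the venular and arterial lists, so the shares are not separate evidence from the gene calls. The remaining cells had under 2 UMIs of each set. They were 7 of 31, 14 of 46 and 5 of 9 cycling cells, against 6 of 31, 0 of 39 and 1 of 10 partners. Among all unmatched blood-marked cells with a sum of 0 they were 30 of 132, 26 of 171 (15.2%) and 114 of 329, so that the D10 contrast with 30.4% of cycling cells was smaller there. With cells thinned to 2000 UMIs they were 20 of 32 cycling cells and 64 of 142 comparison cells at D10. Of the blood-marked cycling cells 6, 12 and 0 had 2 or more UMIs of both marker sets and were counted as venous-marked, as were 9, 10 and 2 partners.

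**Figure D4:**
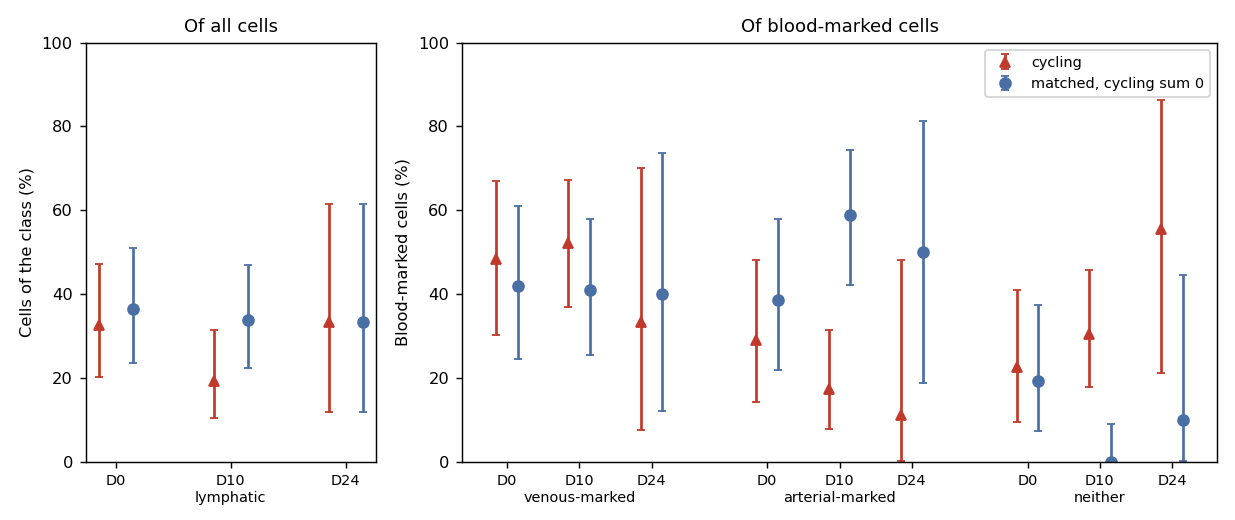
Share of cells in each vessel class at D0, D10 and D24, in percent of all cells (left) and of blood-marked cells (right), for cycling cells (triangles) and UMI-matched partners (circles); bars are exact 95% binomial intervals. Arterial-marked cells are fewer among cycling cells at all 3 ages, 17.4% against 59.0% at D10, while the bars of the lymphatic shares overlap at each age.

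By marker class, cells that met the cycling rule were found in each class at D0, D10 and D24, and over all Pecam1 cells they were rare at D56 and D300. Over all Pecam1 cells the cycling share was 13.9% at D0 (exact 95% interval 10.5 to 17.8), 15.7% at D10 (12.3 to 19.7) and 2.83% at D24 (1.59 to 4.63). At D56 it was 0.268% (2 of 746 cells) and at D300 0.175% (1 of 571). With every cell thinned to 2000 UMIs the shares were 6.93%, 6.60%, 1.70%, 0.273% and 0% (0 of 558 cells, which allows up to 0.538% by a limit of 3 cells and 0.659% by the exact interval). Without cells of 20 or more fibroblastic UMIs the shares were 7.87% (4.88 to 11.9) at D0, 15.1% (11.6 to 19.2) at D10 and 3.0% (1.69 to 4.90) at D24. The order of D0 and D10 was not resolved, since their intervals overlap, and D24 lay below both. Each age is 1 library, so these shares have no replicate check.

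At D10, cells with neither venous nor arterial marks had the highest share, 14 of 48 (29.2%, 17.0 to 44.1), followed by venous-marked cells with 24 of 113 (21.2%, 14.1 to 29.9), lymphatic cells with 12 of 89 (13.5%, 7.17 to 22.4) and arterial-marked cells with 8 of 122 (6.56%, 2.87 to 12.5). Neighbours in this order overlap, and the arterial-marked share lies below that of the first 2 classes without overlap. At D0 the shares were 13.5%, 18.3%, 14.0% and 9.18% in the same order of classes, and all intervals overlap. At D24 they were 3.82%, 3.19%, 3.91% and 0.649%. When each cell's cycling count was thinned to 2000 UMIs, the D10 shares became 12.5%, 8.85%, 4.49% and 4.13%, and all 4 intervals overlap, so that the depth of the cells limits this comparison.

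**Figure D5:**
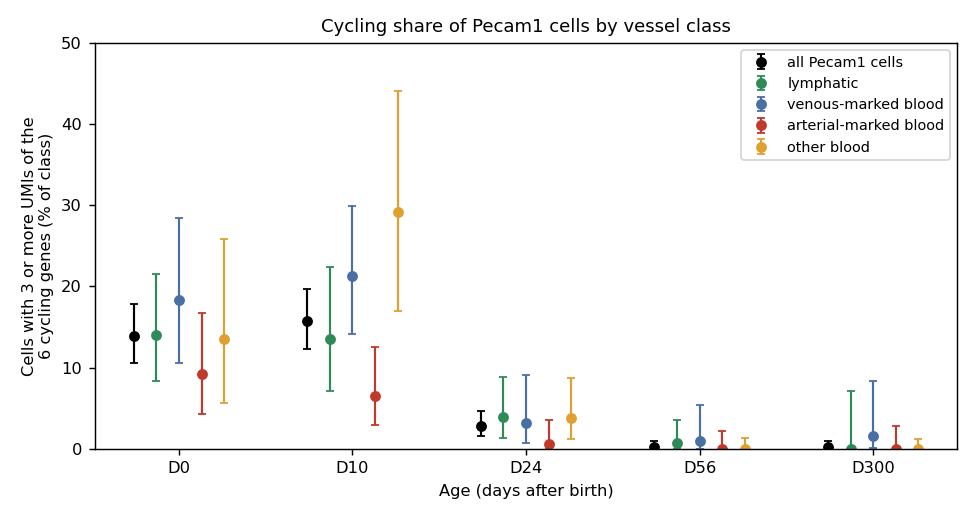
Share of Pecam1 cells with 3 or more UMIs of the 6 cycling genes, in percent of each vessel class, at D0, D10, D24, D56 and D300; points are shares in 1 library per age at D0 to D24 and bars are exact 95% binomial intervals. Shares of all Pecam1 cells are 13.9% and 15.7% at D0 and D10 and 2.83% at D24, and arterial-marked cells have the lowest point at D0, D10 and D24.

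The lymphatic cycling cells are described here by their division lists, with no test on so few cells. At D24 the 5 lymphatic cycling cells had 96 to 243 G2/M-list UMIs and all 5 had more G2/M than S-phase UMIs. The 9 blood-marked cycling cells of that age had a median of 47 G2/M UMIs, and 6 of them had more G2/M than S-phase UMIs. At D10 the medians were 99.5 UMIs in 12 lymphatic and 70 in 46 blood-marked cells, and at D0 52 in 17 and 53 in 31. The cells differed in depth, with median totals of 12975, 10625 and 11644 UMIs in lymphatic cycling cells of D0, D10 and D24 and 11837, 10284.5 and 6923 in blood-marked ones. Per UMI, the G2/M list summed to 8113, 9454 and 14398 CPM in lymphatic and 6137, 8685 and 8316 in blood-marked cycling cells.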

How the data were processed

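Single-cell libraries of CD45-CD24- mLN cells were made with the 10x Genomics 3' v2 kit. Per the labels, the authors used Cell Ranger 2.0.0 with STAR on mm10 and Seurat 2.3.3, and deposited 1 table of UMI counts, not normalized, of 27998 genes in 17692 cells. The annotation release is not given in the sources used here. The labels name 7 samples. D56 and D300 columns could not be split by sample and serve only as background shares. No doublet caller was run, and the upper limit of 4600 genes removed the largest cells. Members and gene lists were chosen with earlier results of these data known.

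Here, cells were filtered by 1000 to 4600 genes and 4.5% mitochondrial UMIs, selected and matched 1 to 1 on total UMIs within 20%, without replacement. Counts were summed per age and state. Genes passing filterByExpr were fitted with edgeR 4.0.16 (TMM, quasi-likelihood test, age and state in the model, R 4.3.3), all genes in the library sizes, Pecam1 and the 6 cycling genes left out of the calls. The 3 ages are the replicates, and the test uses a dispersion moderated across all genes. A small p-value therefore does not show that the difference recurs at each age, as with Cdkn1c and Gja4. The SE is the size of the log2 fold change over the square root of the F statistic. DESeq2 1.42.0 was an alternative. CPM are summed UMIs over total UMIs, times 1000000. On simulated data the fit recovered 41.7% of genes with a true log2 change of 1 and 96.7% of those with a change of 2. It also called 9 unchanged genes. A gene that was not called may therefore still differ. Shares have exact (Clopper-Pearson) 95% intervals and sums exact Poisson intervals; differences of shares have Newcombe intervals. All cover counting error only. A ratio against 0 UMIs uses 3 UMIs. List genes may be named; beyond them the 10 highest and 10 lowest called genes by fold with a mean of at least 50 CPM in the higher state and 1 direction at all 3 ages were named, of which some are not reported here. Gene positions are from GENCODE M21 (GRCm38) and promoters from RefSeq.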

Additional observations from a re-analysis of the deposited data

Results flagged for a closer look

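Among 318 list genes, 24 stood higher in cycling cells than in their UMI-matched partners at 1 age and lower at another, by exact counting intervals that cover counting error only. The values are ratios of the level in cycling cells over that in partners. Each age is 1 library, so the difference between ages was not tested.

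Lymphatic genes gave 5 of them. Lyve1, the hyaluronan receptor of lymphatic sinuses, had a ratio of 2.27 at D0, 0.300 at D10 and 12.5 at D24, and Marco, a scavenger receptor, 2.27, 0.0105 and 7.997. Ackr4 had 2.50 at D0 and 0.0694 at D10, and Itga2b 3.54 and 0.324. The chemokine Ccl21a had 1.24 at D0, 1.10 at D10 and 0.862 at D24. The lymphatic share of cells was 32.7%, 19.4% and 33.3% in cycling cells and 36.5%, 33.9% and 33.3% in partners, and its part in these ratios was not tested.

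Antigen presentation genes gave another 5, each above 1 at D0. The MHC class II genes Cd74 and H2-Ab1 had 1.97 and 3.62 at D0 and 0.548 and 0.698 at D10, with Cd74 at 0.594 at D24. The class I genes H2-D1 and H2-K1 had 1.21 and 1.38 at D0 and 0.678 and 0.713 at D24, with H2-D1 at 0.9005 at D10. B2m, their shared light chain, had 1.18 at D0 and 0.685 at D24.

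Among capillary and other vessel genes, Fabp4 had 0.798, 0.307 and 3.23 at D0, D10 and D24, Cd36 1.42, 0.436 and 1.61, and the arterial matrix gene Fbln2 0.501, 0.190 and 8.997. Cldn5, a tight junction protein, had 0.718 at D10 and 1.44 at D24, and Nrp1 0.755 at D0 and 1.28 at D10. Of the high endothelial genes, Madcam1 had 1.51 at D0, 0.686 at D10 and 0.575 at D24, and Enpp2 (autotaxin) 1.45 at D10 and 0.509 at D24.

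The cycle inhibitor Cdkn1c had 0.352, 0.276 and 3.25. Fos had 0.796, 0.668 and 1.25, Hspa1a 0.749, 1.09 and 0.641, and Odc1, of polyamine synthesis, 1.74 at D10 and 0.459 at D24. Markers of other cells were among the 24, with the fibroblastic Dcn at 0.332, 1.24 and 0.288 and the perivascular Rgs5 at 2.26 at D0 and 0.327 at D10. Xist had 1.36 at D0 and 0.560 at D10. At D10 only 9 of 62 cycling cells and 17 of 62 partners had a UMI of it, against all 52 cells of each group at D0.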

How the results depend on the processing

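No paired analysis was possible because, by replicate number, the labels repeat numbers only at D56 and D300, whose samples share columns and enter no test; the comparison within each age is already in the fit through its age term. The fit called 489 genes in all. In separate fits DESeq2 called 181 (158 higher, 23 lower), no age term 203 (188 and 15) and thinning to 2000 UMIs 177 (120 and 57). A cycling sum of at least 5 gave 293 (223 and 70) and no upper limit on genes 735 (470 and 265). Leaving out cells in the top 5% of UMIs gave 311 (229 and 82), and those of 20 or more fibroblastic UMIs 185 (130 and 55). Leaving out D0, D10 or D24 gave 284, 250 and 660. The limits at 20 UMIs and blood-marked cells alone were chosen after seeing the data. The cause of these shifts was not tested.

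The venular list, with 5 lower calls, gave 3 with DESeq2, against all unmatched cells and without cells of 20 or more erythroid, perivascular or leukocyte UMIs, 2 with 2 partners per cell, a sum of at least 5, no top 5%, no fibroblastic UMIs and blood-marked cells alone, and 1 without age, thinned or with a sum of at least 2. Leaving out 1 age gave 3 to 4. The arterial list, with 3, gave 0 with DESeq2, without age or with a sum of at least 5, 1 in either limit at 20 UMIs, 5 with a sum of at least 2, 6 without the filter on low counts, 7 without an upper limit or in blood-marked cells, and 8 against all unmatched cells. Leaving out 1 age gave 0 to 6. The tip list, with 3 higher calls, gave 1 with DESeq2, without age or with a sum of at least 2, and 0 thinned, and 1 to 3 when 1 age was left out. The S-phase list went from 28 of 31 tested genes to 11 of 19 thinned and 17 of 20 without fibroblastic UMIs. The G2/M list went from 46 of 48 to 28 of 32 and 27 of 29. Leaving out 1 age gave 24 to 31 calls in the S-phase list and 40 to 47 in the G2/M list. Thinned and without fibroblastic UMIs, the median log2 fold changes were 1.64 and 1.78 for S phase, against 1.88 in the main fit. For G2/M they were 4.38 and 4.46, against 4.63.

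The cycling share at D0 was 19.7% from a sum of 2, 9.07% from 5, 17.98% without the upper limit, 7.87% without fibroblastic UMIs and 6.93% thinned. At D10 it was 6.60% thinned. At D24 it was 4.91% from a sum of 2. Without any cell of 3 or more fibroblastic, perivascular or leukocyte UMIs it was 6.25% at D10 and 0% at D24, and the fit and vessel classes were not run under that limit, which left 0, 2 and 0 cycling cells. The venous-marked difference turned to -17.5 points at D0 without fibroblastic UMIs, to -1.22 at D10 without erythroid, perivascular or leukocyte UMIs, and at D24 to 11.4 against all unmatched cells, 16.8 thinned and 7.60 from a sum of 2. The lymphatic and arterial-marked differences stayed within the intervals of their main values in the alternatives run, while their own intervals at D10 (lymphatic) and D24 (arterial-marked) excluded 0 in 2 and 3 of these. That of the venous-marked difference excluded 0 at D10 against all unmatched cells (2.99 to 34.1).

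Of 69 called genes followed through the alternatives, the call was kept by 31 without age, 31 of 59 with a value when thinned, 28 of 51 without fibroblastic UMIs and 37 with DESeq2, and by 44 to 68 in the other alternatives. Of the 69, 7 turned in at least 1 of 17 alternatives. Against all unmatched cells Glycam1 was 0.20, Lrg1 0.027 and Rgcc -0.55 on the log2 scale, and thinned Glycam1 was 0.68, past the threshold (adjusted p = 0.0165), and Rgcc -0.46. From a sum of 2, Dcn was 0.054 and Mt1 0.052. Acta2 was 0.86 without erythroid, perivascular or leukocyte UMIs, and Ccl7 0.33 in blood-marked cells. Among genes not called, Fabp4 was 0.10 without fibroblastic UMIs, 0.088 in blood-marked cells and -1.04 to 0.51 when 1 age was left out (0.51 without D10), Cdh5 was 0.0016 without fibroblastic UMIs, and Fut7 was 0.13 against all unmatched cells. Lyve1 was -0.34 with 2 partners, -0.14 against all, -0.24 from a sum of 2 and -0.32 to 1.52 when 1 age was left out (-0.32 without D0, -0.11 without D24). Madcam1 was 0.012 with 2 partners, 0.43 against all, 0.0001 from a sum of 2, 0.024 without the top 5% and 0.35 in blood-marked cells.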

Other observations

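Cycling endothelial cells were nearly absent from the adult libraries. At D56, 2 of 746 Pecam1 cells met the rule and at D300 1 of 571, and no account of their genes is given from so few cells.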
